A study of Saccharomyces cerevisiae with 2 samples.

Results

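The positions described here are the nucleosomes of chromosome III of budding yeast (Saccharomyces cerevisiae) with the shortest protected footprints. Each entry of the lists is a predicted nucleosome with a centre and a value called delta, the fitted distance in bp between the peaks of forward and reverse read positions on either side of that centre. The members were chosen by delta alone, as the 10% of entries with the lowest value in each paired-end list. This gave 226 of 2264 positions of H2A.Z chromatin and 235 of 2353 positions of total chromatin, 461 of 4617 in all. They are compared with the middle 80% by delta of the same list, 1812 and 1883 positions. Since delta chose the members, its values in the same list are given as a description.

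The H2A.Z library holds DNA of mononucleosomes precipitated through an anti-Myc antibody, and the total library holds DNA of unselected mononucleosomes. Both come from the haploid W303 strain yFR212 (MATa), which is GAL+ psi+ and carries ura3-1, his3-11,15, trp1-1, can1-100, ade2-1 and leu2 with the mutations 3 and 112 and in which HTZ1, the only source of the histone variant H2A.Z, ends in 3 Myc epitopes, so the total library is tagged chromatin too. Cells in rich medium at an optical density of 0.8 were crosslinked in 1% formaldehyde, and their chromatin was cut for 20 minutes at 37 °C by micrococcal nuclease (MNase). There was 1 library per group from a single strain. The clone of the antibody and the time of crosslinking are each given in 2 versions by the labels. They also describe aliquots digested with different amounts of MNase without saying which amount either library had, and the extent of digestion was not measured here. Being listed for the H2A.Z library does not show that a nucleosome carried the variant.

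A nucleosome is DNA wrapped around a histone octamer, and MNase cuts the linkers between nucleosomes and then trims the ends of the protected DNA. Footprints shorter than that of a whole nucleosome are known from nucleosomes that have partly unwrapped, from hexasomes, which have lost an H2A-H2B dimer, and from longer digestion. In yeast, promoters hold a nucleosome-depleted stretch kept open by remodellers such as RSC. The nucleosomes that border it often carry H2A.Z, which the SWR1 complex puts in place of H2A. Delta is a parameter of a fit and not the length of sequenced fragments, and the entries were not assigned to genes here. Short means low among the deltas of the same list, and the length of a whole nucleosome was not used as a limit.

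The members had deltas of 103.2 to 117.7 bp in H2A.Z chromatin and of 96.8 to 117.6 bp in total chromatin. Their median was 115.9 bp (95% interval of the median 115.3 to 116.1 bp) in the H2A.Z list, where the middle 80% had a median of 124.9 bp and spanned 117.7 to 133.1 bp. In the total list the members had a median of 114.8 bp (114.0 to 115.1 bp), against 126.1 bp in the middle 80%, which spanned 117.6 to 135.5 bp. The members were the lower flank of a continuous distribution and formed no separate peak. The last H2A.Z member inside the limit, centred at 55584, had a delta of 117.70 bp, and the first position outside it, at 218371, had 117.74 bp. In the total list these were 117.556 bp at 14438 and 117.558 bp at 294976.

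**Figure D1:**
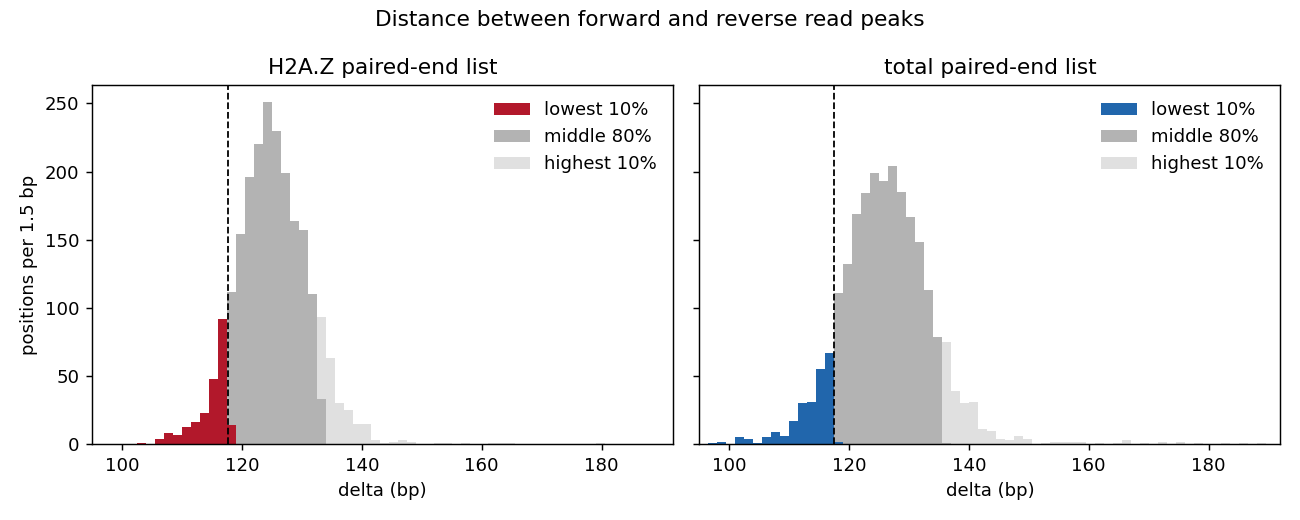
Number of positions per 1.5 bp of delta (bp) in the H2A.Z and the total paired-end list, with the lowest 10%, the middle 80% and the highest 10% stacked and the last member marked by a dashed line. The members are the lower tail of 1 continuous peak in both lists, with limits at 117.70 bp in H2A.Z and 117.556 bp in total chromatin.

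The error of delta was large beside the width of this tail. The standard error of delta, derived from the deposited standard errors of the centre and of both peaks, had a median of 4.09 bp for H2A.Z members and 3.24 bp for total members, against 3.89 and 2.89 bp in the middle 80%. Only 25 of 226 H2A.Z members and 49 of 235 total members lay below the limit by more than 1.96 of their own standard errors. By the same margin, 150 of 226 H2A.Z members and 216 of 235 total members lay below the median of the middle 80%. The members were chosen for a low delta, so these counts are a description. Outside the limit, 1014 H2A.Z and 629 total positions lay within 1.96 of their standard errors of it, so that the limit does not separate its neighbours beyond the error of the fit.

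Whether a short footprint recurred could be asked in the library that had not been used to choose it. Positions of the lists were paired, and are called matched, if their centres were at most 20 bp apart. Of the H2A.Z members, 157 of 226 were matched to a total position, or 69.5% (95% Wilson interval 63.2 to 75.1%), against 69.3% (67.1 to 71.3%) in the middle 80% and 69.4% of all H2A.Z positions. Of the total members, 158 of 235 were matched to an H2A.Z position, or 67.2% (61% to 72.9%), against 68.2% (66.1 to 70.3%) in the middle 80% and 67.9% of all total positions. The difference had an interval of -6.42 to 6.25 percentage points in H2A.Z and -7.52 to 5.12 in total chromatin. For members drawn from single-end lists it was -6.24 (-12.8 to -0.715) in H2A.Z and -13.2 (-20.3 to -6.95) in total chromatin. When matches to 73 bp were allowed it was -2.83 (-6.62 to -0.434) and -4.42 (-8.43 to -1.72). Its sign changed under 6 of 11 alternatives in H2A.Z and 3 of 11 in total chromatin. The median distance between paired centres was 5.87 bp for H2A.Z members and 6.19 bp for total members, against 5.87 and 5.94 bp in the middle 80%.

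At these matched places the other library gave short footprints as well. Of the 157 matched H2A.Z members, 80 fell on a position that was itself among the lowest 10% of the total list, or 51.0% (43.2 to 58.7%), against 76 of 1255 matched positions of the middle 80%, or 6.06% (4.87 to 7.51%), and 9.99% of all matched H2A.Z positions. Of the 158 matched total members, the same 80 pairs made up 50.6% (42.9 to 58.3%), against 79 of 1284, or 6.15% (4.97 to 7.60%), in the middle 80% and 10.1% of all matched total positions. A match to the opposite tail, the highest 10% by delta, was found for 1 matched member in each direction. In the middle 80% it was found for 60 of 1255 matched H2A.Z positions, or 4.78%, and 74 of 1284 matched total positions, or 5.76%. Read in the other library, delta had a median of 117.5 bp (116.0 to 118.6 bp) at the matched H2A.Z members, against 126.1 bp at the middle 80%, a difference of -8.65 bp with an interval of -10.2 to -7.47 bp. At the matched total members the H2A.Z list had a median delta of 117.6 bp (116.7 to 118.5 bp), against 125.0 bp, a difference of -7.33 bp (-8.33 to -6.36 bp). All intervals given here cover counting error and take each position as independent, and with 1 library per group there is no replicate check.

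The long tail recurred too. The highest 10% by delta of the H2A.Z list fell on the highest 10% of the total list for 84 of 160 matched positions, or 52.5% (44.8 to 60.1%), and 83 of 155, or 53.5% (45.7 to 61.2%), did so in the other direction. Over the 1555 mutually nearest pairs of the lists, delta in H2A.Z and in total chromatin had a Spearman's rho of 0.730, and 0.606 within the 1106 pairs that lay in the middle 80% of both. The pairs share the strain, the sequence under them and the fitting method, and neighbouring pairs are not independent, so rho is a description.

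**Figure D2:**
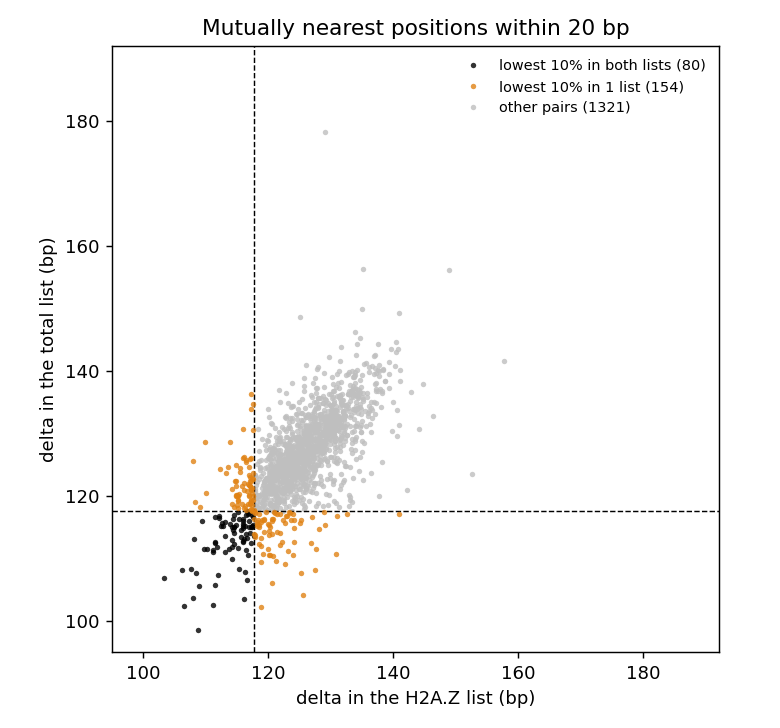
Delta (bp) in the H2A.Z list on the horizontal axis and in the total list on the vertical axis for 1555 mutually nearest positions within 20 bp, with dashed lines at the limit of the lowest 10% of each list. The 80 pairs short in both lists are the low end of a cloud that rises along its whole length, 154 pairs are short in 1 list, and 1321 are short in neither.

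The single-end lists held short values at these places too. A single-end position of the same library lay within 20 bp of 154 of 226 H2A.Z members, or 68.1%, against 67.4% in the middle 80% and 67.0% of all H2A.Z positions, and of 148 of 235 total members, or 63.0%, against 68.1% and 66.7%. Of the 154 H2A.Z members, 86 were among the lowest 10% of that list, or 55.8% (48.0 to 63.5%), against 4.83% in the middle 80% and 9.56% of all such matches. In total chromatin the count was 84 of 148, or 56.8% (48.7 to 64.5%), against 4.75% and 9.24%. These lists come from the same DNA and are no independent sample. Across libraries, 66 of 142 H2A.Z members, or 46.5% (38.5 to 54.7%), fell on the lowest 10% of the total single-end list, against 6.01% in the middle 80% and 9.51% of all such matches. For total members and the H2A.Z single-end list the count was 58 of 132, or 43.9% (35.8 to 52.5%), against 7% and 9.75%. Of the 80 pairs short in both paired-end lists, 30 were short in all 4 lists when followed from the H2A.Z centre and 32 from the total centre. A single-end position of the same library lay within 20 bp for 65 and 68 of the 80, and pairs without one count as not short. Only these 80 pairs could be short in all 4 lists, so the counts are a description.

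The 80 shared pairs were chosen for a low delta in both lists, so their differences in delta are a description and no measure of agreement. Delta differed by a median of 2.12 bp, by at most 5 bp in 68 of 80 pairs, and by more than 1.96 combined standard errors in 4. The shortest pair had its centre at 162363 in the H2A.Z list and 162372 in the total list of chromosome III (build sacCer2). Its deltas were 109 ± 2.92 bp and 98.6 ± 2.66 bp (derived standard error of delta, 1 library each). Its single-end deltas were 103 bp in both libraries. This place was short in all 4 lists. Its scores ranked 541 of 2264 in H2A.Z and 511 of 2353 in total chromatin, at percentiles of 76.1 and 78.3. In the H2A.Z list another entry lay 42.6 bp away.

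The next pair, at 227918 and 227922, had deltas of 107 ± 4.01 bp in H2A.Z and 102 ± 3.99 bp in total chromatin and ranked 1195 and 2039. The third, at 30704 and 30698, had 103 ± 1.10 bp in H2A.Z, the shortest delta of that list, and 107 ± 4.28 bp in total chromatin. It ranked 79 in H2A.Z and only 1955 in total chromatin, and the shorter value, with the smaller error, came from the library in which it scored higher. The pair at 224710 and 224713 also scored higher in H2A.Z, but its shorter value was that of total chromatin, with the larger error. It had 108 ± 2.20 bp at rank 203 in H2A.Z and 104 ± 4.20 bp at rank 1916 in total chromatin. The pair at 52348 and 52347 scored well in both, at ranks 139 and 126, with deltas of 106 ± 2.03 bp and 108 ± 2.51 bp and single-end deltas of 107 and 110 bp. Its nearest neighbour in the H2A.Z list was 130.7 bp away.

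Among the 10 shortest pairs, some lay next to each other or far from other entries. The pairs at 90839 and 90957 of the H2A.Z list, neighbours 118 bp apart, had deltas of 111 ± 3.04 and 109 ± 4.64 bp there and 103 ± 4.85 and 106 ± 6.86 bp in total chromatin. Their total scores were near the bottom, at ranks 2130 and 2244. The pair at 86744 and 86742 stood alone, with its nearest H2A.Z neighbour 1373 bp away, and had 108 ± 5.10 and 108 ± 3.96 bp. The remaining pairs among the 10 shortest were at 84195, with 108 ± 4.93 bp in H2A.Z and 108 ± 1.88 bp in total chromatin, and at 295474, with 112 ± 4.64 and 106 ± 7.59 bp. Of these 10 pairs, 8 were short in all 4 lists, but the 10 were picked for the lowest mean delta, so this is a description.

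Of the 5 shortest footprints of the total list, 3 had no H2A.Z value to be set beside them. The shortest of the total list, 96.8 ± 3.87 bp at 202383, lay 27.6 bp from another entry and had no H2A.Z centre within 20 bp. Those of 99.0 ± 6.55 bp at 190343 and 101 ± 4.40 bp at 217190, had no H2A.Z centre that near either. The member of 102 ± 2.51 bp at 101633 matched an H2A.Z position of 118.7 bp. In the H2A.Z list, the members of 107 ± 5.20 bp at 212832 and 107 ± 3.90 bp at 151758 were also without a match. Among the 5 shortest of each list, 3 of H2A.Z and 1 of total chromatin were thus short in both.

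Members scored lower than other positions, above all in total chromatin. The score is the authors' own, so only its percentile within a list is used, with 100 the highest. Its median was 44.0 (95% interval 38.6 to 50.2) for H2A.Z members, against 50.9 (48.5 to 53.4) in the middle 80%. It was 34.9 (29.3 to 45.9) for total members, against 51.0 (48.6 to 53.3). The lowest 10% of scores held 31 of 226 H2A.Z members, or 13.7% (9.84 to 18.8%), against 8.72%, and 43 of 235 total members, or 18.3% (13.9 to 23.7%), against 8.23%. Along the deciles of delta the median percentile in total chromatin was 34.9 in the lowest, 62.2 in the ninth and 53.3 in the highest. Among the upper 50% of scores the difference between members and the middle 80% was 1.08 percentile points in H2A.Z and -1.93 in total chromatin. This filter acts on the score itself and narrows its range, so a small difference follows in part from it. It kept 99 of 226 H2A.Z members, against 920 of 1812 positions of the middle 80%. In total chromatin it kept 90 of 235 members, against 959 of 1883. Score, delta, variances and errors come from 1 fit to the same reads, so their relations are descriptions.

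High scores were nonetheless present among the members. The highest-scoring position of all total chromatin was a member, at 213811, with a delta of 111 ± 1.45 bp, and its H2A.Z match 0.127 bp away ranked 50 with 113 ± 1.97 bp. Its single-end deltas were 113 bp in H2A.Z and 112 bp in total chromatin, so it was short in all 4 lists. Among H2A.Z members the highest score belonged to the position at 46896, rank 3, with 117.68 ± 0.754 bp, but its total match had 117.82 bp, just outside the limit, and its single-end delta in H2A.Z was 125.6 bp. Others with high H2A.Z scores were at 208173, 172732 and 166591, at ranks 62, 77 and 78, with 117.3, 109.6 and 112.5 bp in H2A.Z and 117.0, 111.6 and 115.3 bp in total chromatin. Of the 80 shared pairs, those with the lowest sums of ranks after 213811 were at 31620 with 117.5 ± 2.09 bp in H2A.Z and 116.6 ± 1.42 bp in total chromatin, at 52348, at 273280 with 115.9 ± 1.80 and 116.3 ± 1.86 bp, and at 108816 with 116.2 ± 1.84 and 107.8 ± 1.87 bp. The last of these differed most between the libraries, and in the single-end lists too it had 116.9 bp in H2A.Z and 108.5 bp in total chromatin. In total chromatin the members at 65243, 293870 and 113045 followed at ranks 21, 22 and 33, and each matched an H2A.Z position above the limit, of 117.8, 117.8 and 120.1 bp.

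Fuzziness, taken as the spread of reads around their fitted peak, was not higher in members. The SD of forward read positions had a median of 26.3 bp (25.6 to 27.0 bp) for H2A.Z members, against 27.0 bp (26.8 to 27.3 bp) in the middle 80%. For total members it was 25.4 bp (24.8 to 26.2 bp), against 25.6 bp (25.4 to 25.9 bp). The centre was placed slightly less well. Its standard error had a median of 2.70 bp for H2A.Z members, against 2.41 bp, and 1.93 bp for total members, against 1.73 bp. In the upper 50% of scores this difference in total chromatin was -0.0177 bp.

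Members of total chromatin were found more often beside wide distances between nucleosomes of the total single-end list. Distances between centres that are wider than the usual nucleosome spacing occur at nucleosome-depleted stretches, among other places. The total single-end list had 159 distances of 220 bp or more between neighbouring centres, with a median of 267 bp, and a position counted as beside one when it lay within 20 bp of a bordering centre. This held for 31 of 226 H2A.Z members, or 13.7% (9.84 to 18.8%), against 11.2% (9.83 to 12.7%) in the middle 80% and 11.6% of all H2A.Z positions. It held for 43 of 235 total members, or 18.3% (13.9 to 23.7%), against 202 of 1883, or 10.7% (9.41 to 12.2%), in the middle 80% and 11.7% of all total positions. The difference was 2.51 percentage points (-1.66 to 7.79) in H2A.Z, where the interval includes 0 and a tolerance of 10 bp gave -0.919, and 7.57 (2.91 to 13.2) in total chromatin. That the excess differed between the libraries was not tested.

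With wide distances taken from the H2A.Z single-end list, an excess was seen in both libraries. Of the H2A.Z members, 45 of 226 were beside one, or 19.9% (15.2 to 25.6%), against 13.6% in the middle 80% and 14.2% of all H2A.Z positions. The difference was 6.28 percentage points (1.31 to 12.2), with members and distances from the same DNA. For total members, whose reads this list does not use, the count was 48 of 235, or 20.4% (15.8 to 26.0%), against 12.4% and 13.0%, a difference of 8.00 percentage points (3.08 to 13.8). For members drawn from the single-end lists, the share beside wide distances of the total single-end list was close to that of their middle 80%. The difference was -0.449 percentage points (-5.21 to 5.61) in H2A.Z and 1.21 (-3.95 to 7.54) in total chromatin. Of the highest 10% by delta, 12.8% were beside the wide distances of the total single-end list in both libraries.

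**Figure D3:**
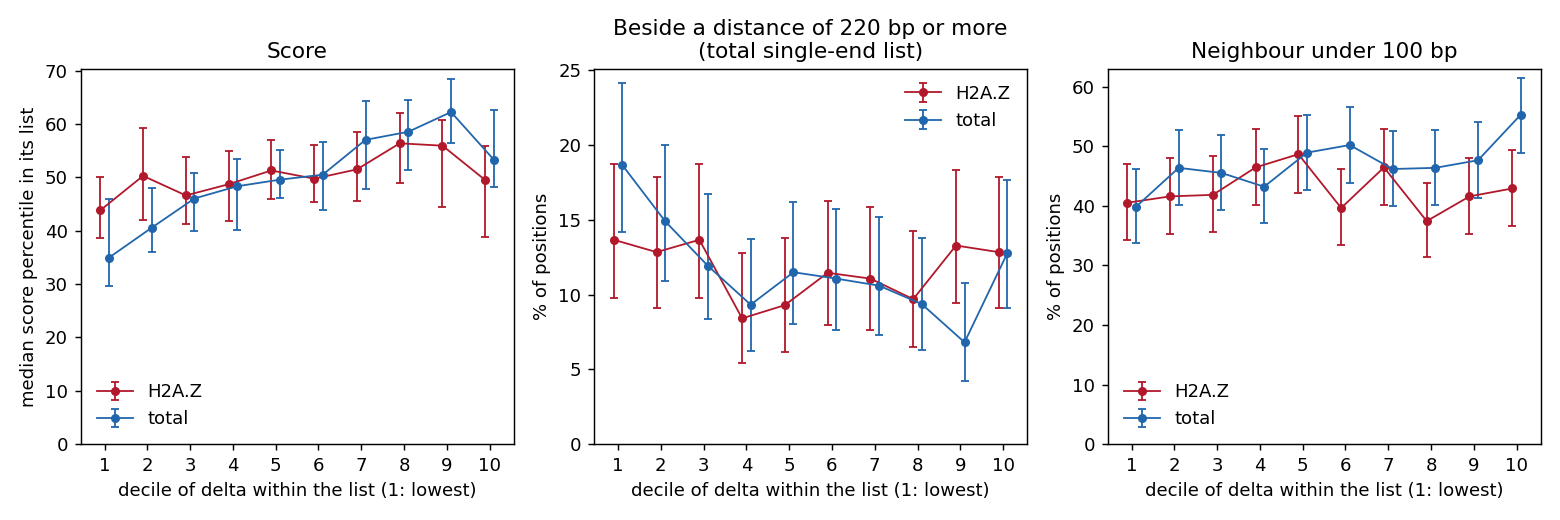
Median score percentile (left), share of positions beside a distance of 220 bp or more in the total single-end list (centre) and share with a neighbour under 100 bp (right), by decile of delta from lowest to highest, for H2A.Z and total chromatin with 95% intervals over positions. The lowest decile, which holds the members and 1 further position, has the lowest median score in both lists and, in total chromatin, the highest share beside wide distances, 18.6%.

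Of the 159 wide distances, 34 had an H2A.Z member at an edge and 45 a total member. In 27 of them both lists had a member at the same edge. These are counts of wide distances and add nothing to the shares of positions above. Members bordering wide distances had higher scores than other members, with a median score percentile of 84.5 in H2A.Z and 62.3 in total chromatin, against 40.0 and 33.6 for the members elsewhere. Positions of the middle 80% beside wide distances scored higher still, at 91.3 and 75.1. There, the other library was short too for 24 of 31 matched H2A.Z members, or 77.4% (60.2 to 88.6%), against 16 of 193, or 8.29%, in the middle 80%. For total members it was 24 of 41, or 58.5% (43.4 to 72.2%), against 7 of 183, or 3.83%. Away from wide distances the share was 44.4% (36.1 to 53.2%) for H2A.Z members, against 5.65% in the middle 80%, and 47.9% (39.0 to 56.8%) for total members, against 6.54%.

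Close neighbours were no more common around members of the paired-end lists. A neighbour under 100 bp away, too near for a separate nucleosome on the same DNA molecule, was present for 91 of 226 H2A.Z members, or 40.3% (34.1 to 46.8%), against 43.0% in the middle 80% and 42.7% of all H2A.Z positions. For total members it was 94 of 235, or 40.0% (34.0 to 46.4%), against 46.8% and 47.0%. The difference was -2.73 percentage points (-9.32 to 4.16) in H2A.Z and -6.79 (-13.2 to -0.0275) in total chromatin, and 1.10 in total chromatin with a limit of 120 bp. The median distance to the nearest neighbour was 113 bp for H2A.Z members, against 112 bp, and 108 bp for total members, against 105 bp. The sign of this difference changed under 6 of 7 alternatives in H2A.Z and 4 of 7 in total chromatin. Among the lowest 10% of the single-end lists the relation was the opposite, with close neighbours for 20.5% in H2A.Z and 25% in total chromatin, against 13.5% and 12.6% in their middle 80%.

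Distances near the usual nucleosome spacing were rarer around members. Those of 140 to under 200 bp made up 35.2% of those next to H2A.Z members (30.9 to 39.7%), against 42.5% (40.9 to 44.2%) in the middle 80%, and 32.6% of those next to total members (28.5 to 36.9%), against 42.0% (40.4 to 43.5%). Some shorter and longer distances were more common. Those of 100 to under 140 bp made up 29.4% in H2A.Z and 30.9% in total chromatin, against 23.9% and 22.4%, and those of 200 to under 400 bp 10.6% and 10.0%, against 6.18% and 5.29%. At the members' single-end matches, neighbours were likewise placed more unevenly. The nearer neighbour lay a median of 141.6 bp away for H2A.Z members and 146.5 bp for total members, against 150.3 and 154.1 bp, and the farther one 184.5 and 185.1 bp away, against 173.9 and 171.4 bp. The interval of the difference for the farther neighbour was -1.25 to 25.5 bp in H2A.Z and 5.22 to 23.5 bp in total chromatin.

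**Figure D4:**
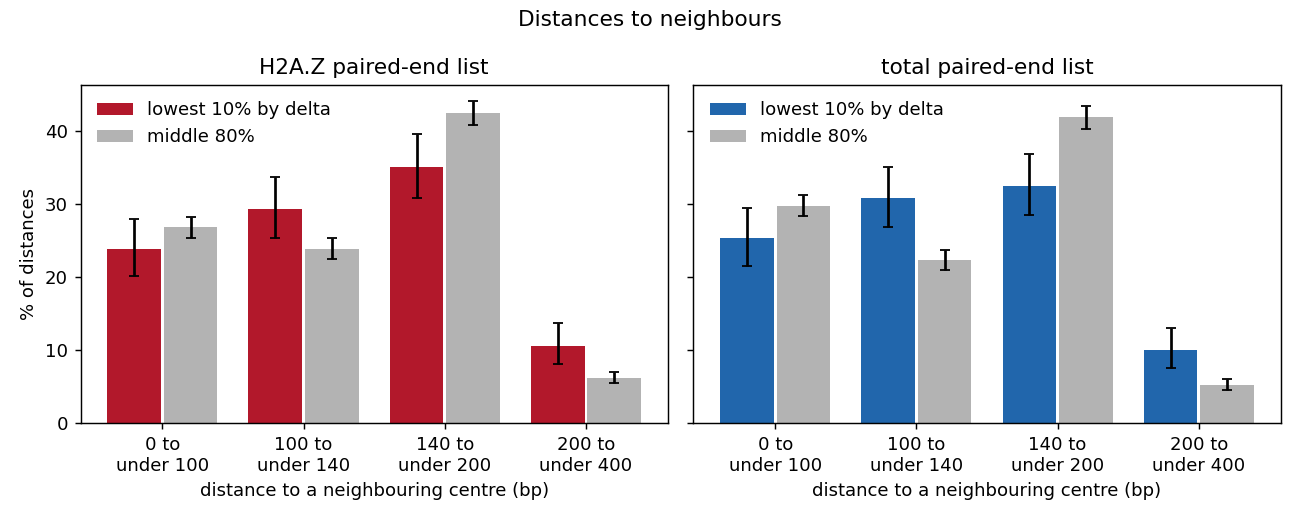
Share of distances to neighbouring centres (%) in 4 ranges of bp for the lowest 10% by delta and the middle 80% of the H2A.Z and the total paired-end list, with 95% Wilson intervals. Members have fewer distances of 140 to under 200 bp, 35.2% in H2A.Z and 32.6% in total chromatin, and more of 100 to under 140 and of 200 to under 400 bp than the middle 80%.

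Short positions were often neighbours of each other. Of the entries next to an H2A.Z member, 82 of 452 were members, or 18.1% (14.9 to 22.0%), against 9.44% next to positions of the middle 80% and 9.99% next to all positions. In total chromatin it was 98 of 470, or 20.9% (17.4 to 24.8%), against 9.40% and 9.99%. Most members were single all the same. The H2A.Z list had 147 single members, 35 pairs and 3 runs of 3, and the total list had 143 single members, 38 pairs, 4 runs of 3 and 1 run of 4. With only the upper 50% of scores kept, 4.04% of the next remaining entries of H2A.Z members were members, against 9.41% for the middle 80%. In total chromatin it was 8.89%, against 7.82%. These are not the adjacent entries counted above, so they cannot show whether high-scoring members lack the excess. Over the whole lists, the highest 10% by delta also stood together, with 21.2% of their neighbours in H2A.Z and 25.6% in total chromatin of the same kind. Neighbouring entries can be fitted in 1 candidate region and share reads, and the part of this in the result was not tested.

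The 80 members shared by both libraries scored higher than the other members. Their median score percentile was 69.2 in H2A.Z and 60.0 in total chromatin. Members matched to a position above the limit of the other list had 45.5 (77 positions) and 46.3 (78). In the middle 80%, matched positions had 59.8 (1255) and 61.2 (1284). Of the shared positions 24, or 30.0% (21.1 to 40.8%), were beside a wide distance of the total single-end list, against 15.4% (13.5 to 17.5%) of the matched H2A.Z positions and 14.3% (12.4 to 16.3%) of the matched total positions of the middle 80%. For members that were matched but short in their own list only, it was 7 of 77, or 9.09% (4.47 to 17.6%), in H2A.Z and 17 of 78, or 21.8% (14.1 to 32.2%), in total chromatin.

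Close neighbours were common among unmatched positions, members or not. A neighbour under 100 bp away was present for 65.2% (53.4 to 75.4%) of 69 unmatched H2A.Z members, against 64.1% (60.0 to 68.0%) of 557 unmatched positions of the middle 80%. For 77 unmatched total members it was 57.1% (46.0 to 67.6%), against 66.9% (63.1 to 70.6%) of 599. Their own single-end list held 40.6% of the H2A.Z ones, against 40.9%, and 36.4% of the total ones, against 40.2%. Their median score percentile was 27.7 in H2A.Z, against 33.5, and 20.3 in total chromatin, against 32.6. Where a matched member was short in 1 list only, the other delta was above the limit by definition. Its interquartile range was 119 to 124 bp in both directions. For matched positions of the middle 80% the range was 122 to 130 bp from the H2A.Z list and 122 to 129 bp from the total list.

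Members were spread over the whole chromosome. Each of the 32 windows of 10 kb held between 1 and 14 H2A.Z members and between 1 and 15 total members. The highest shares of H2A.Z positions were 9 of 42 from 80 to 90 kb, or 21.4% (exact 95% interval 10.3 to 36.8%), 14 of 78 from 120 to 130 kb, or 17.9%, and 11 of 69 from 140 to 150 kb, or 15.9%. In total chromatin they were 15 of 77 from 110 to 120 kb, or 19.5% (11.3 to 30.1%), 13 of 71 from 250 to 260 kb, or 18.3%, and 10 of 56 from 10 to 20 kb, or 17.9%. The 3 richest windows of the libraries were different ones, but some lay above the overall shares of 9.98% in H2A.Z and 9.99% in total chromatin in both. In total chromatin, the H2A.Z windows from 80 to 90 and from 120 to 130 kb had 14.0% and 15.6%. In H2A.Z, the total windows from 110 to 120, 250 to 260 and 10 to 20 kb had 14.5%, 6.94% and 8.20%. Each of these values has an exact interval that includes the overall share. The window from 140 to 150 kb had 3 of 74 in total chromatin, with an interval of 0.844 to 11.4% that overlaps that of H2A.Z, 8.24 to 26.7%.

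A window poor in both was that from 40 to 50 kb, with 2 of 73 H2A.Z positions and 1 of 68 total positions. The other low windows were 240 to 250 kb, with 1 of 68, and 60 to 70 kb, with 4 of 73, in H2A.Z, and 300 to 310 kb, with 4 of 82, in total chromatin. Exact intervals left out the overall share of 9.98% in 4 of 32 H2A.Z windows and the overall share of 9.99% in 3 of 32 total windows. The first and last 20 kb together held 27 of 226 H2A.Z members, or 11.9% (8.34 to 16.8%), against 12.7% in the middle 80% and 13.2% of all H2A.Z positions. They held 27 of 235 total members, or 11.5% (8.02 to 16.2%), against 13.4% and 12.9%.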

How the data were processed

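Each library has a paired-end and a single-end list of nucleosome positions on chromosome III, predicted by the authors. The series title names PING, and the submitters' processing notes name BWA, SAMtools and sacCer2. The sources used here state no versions, read filters or settings. Per the file headers, the lists give centre, delta and standard errors in bp, variances, a mixing weight that is a fraction between 0 and 1, and a score with its rank. The score is the authors' own and was deposited with no stated scale. The lists carry no read counts, so depth is unknown.

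The standard error of delta was derived by taking the centre as the midpoint of both peaks and delta as their difference. Shares have 95% Wilson intervals, or exact ones for windows. Medians have order-statistic intervals, and differences combine these. With 1 library per group there is no test. The functions were tested on simulated data. Named positions are the 5 shortest and the 5 highest-scoring members of each list, those at the limit, the 10 shortest shared pairs, the 5 with the lowest sum of ranks, and the 3 richest and poorest windows. Members, lists and rules were chosen with earlier results of these data known, and the breakdowns by score, by error of delta and by sharing between libraries were added after seeing the data. No genome sequence was used here. Software was pandas 2.3.3, scipy 1.17.1, numpy 2.4.6 and matplotlib 3.10.9 under Python 3.11.15.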

Additional observations from a re-analysis of the deposited data

Results flagged for a closer look

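The share of members matched within 20 bp to the other library differed from that of the middle 80% in opposite directions, by 0.209 percentage points in H2A.Z and by -0.955 in total chromatin. The difference between the libraries was not tested, and both intervals include 0.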

How the results depend on the processing

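Of 212 alternatives to 26 results, 155 gave a value inside the 95% interval of the reported one and 57 a value outside it. The sign changed in 36, of which 30 belong to results whose reported interval includes 0, such as the matched share and the nearest neighbour. The values below are differences between members and the middle 80%, and the causes of these changes were not tested. The share of matched members also short in the other library stayed 35.2 to 57.4 percentage points above the middle 80%. It was 54.8 in H2A.Z and 57.4 in total chromatin among the upper 50% of scores and 57.1 and 55.1 with whole-number identifiers. With both lists cut at the lowest 5% it was 36.2 in H2A.Z, where 39.5% of matched members recurred, against 3.33% of the positions between the tails. With matches to 73 bp it was 37.0 in H2A.Z and 35.2 in total chromatin. In total chromatin it was 36.5 with matches to 50 bp and 53.1 to 10 bp. Delta in the other library differed by -10.5 bp in H2A.Z and -8.64 bp in total chromatin among the upper 50% of scores, by -10.4 and -8.55 bp for the lowest 5%, by -7.31 and -5.93 bp for the lowest 20%, by -11.0 and -9.53 bp for single-end lists and by -7.37 and -6.32 bp with matches to 73 bp. It was -10.2 bp with whole-number identifiers in H2A.Z and -6.35 bp with matches to 50 bp in total chromatin. Delta between lists of the same library differed by -13.7 and -14.0 bp for the lowest 5%, -8.55 and -9.66 bp for the lowest 20% and -8.03 and -9.84 bp starting from the single-end lists.

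The matched share differed by -6.59 percentage points in H2A.Z for the upper 75% of scores and by -13.2 in total chromatin for the single-end list. The score percentile differed by 1.08 in H2A.Z for the upper 50% of scores, a filter that acts on the score itself. In total chromatin it differed by -3.10 and -1.93 for the upper 75% and 50%, under the same kind of filter. It differed there by -24.3 for the lowest 5% and by -27.5 for the single-end list. The forward SD in total chromatin differed by -1.21 bp for the upper 75% of scores and -1.67 bp for the upper 50%. The error of the centre differed by -0.0814 bp in H2A.Z and 0.422 bp in total chromatin for single-end lists, and in total chromatin by 0.0187 and -0.0177 bp for the upper 75% and 50% of scores.

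The nearest neighbour differed by -10.03 bp in H2A.Z for the upper 75% of scores, by -18.4 bp in H2A.Z and -29.1 bp in total chromatin for single-end lists, and in total chromatin by -6.49 bp with whole-number identifiers and -12.9 bp without entries within 100 bp of a higher-scoring one. Close neighbours differed by -9.76 percentage points in H2A.Z for the upper 50% of scores, by 7.04 in H2A.Z and 12.4 in total chromatin for single-end lists, and by 1.10 in total chromatin with a limit of 120 bp. Neighbours that were members differed by 5.04 in H2A.Z and 0.716 in total chromatin for the upper 75% of scores, by -5.37 and 1.06 for the upper 50%, and by 17.8 and 16.6 for single-end lists. These alternatives for neighbours were chosen after seeing the data. Filters on score or identifier and the removal of close entries were applied first, so that neighbours there were the next remaining entries. The share beside wide distances differed by -0.449 in H2A.Z and 1.21 in total chromatin for single-end lists. The share in the 20 kb ends differed by -5.19 in H2A.Z for the lowest 5%.

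No paired analysis was possible because each group had 1 library. The extent of digestion, depth and error between cultures are unknown, so a short footprint of the nucleosome and deeper trimming by MNase cannot be told apart. Neighbouring entries are not independent, and the intervals are too narrow to that extent.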
